A study of Rattus norvegicus with 10 samples.

Results

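The genes described here make, sense, take up, export and store cholesterol. They were chosen by name, as 36 genes of the sterol pathway, with earlier results of these data known. A probeset of the array was taken for a gene when the platform annotation gave it that gene's symbol. Of the 36 genes, 34 have such a probeset, each with 1, and they are 34 of the 15037 genes named on the array. Hmgcs1, which makes the precursor of mevalonate, and Lrp8, a lipoprotein receptor, have none and are not analysed here by value. The 34 comprise 18 enzymes of synthesis, 7 genes of SREBP control and sterol transport, and 9 genes of the liver X receptors (LXRs), efflux, storage and oxysterols.

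RNA was taken from cultured cells of the nucleus pulposus, the gelatinous core of the intervertebral disc, of male Sprague Dawley rats aged 3 to 4 months and weighing 300 g. In 5 samples (ShBNIP3) the cells had received a lentiviral short hairpin RNA against Bnip3, a receptor for mitophagy, and in 5 samples (ShCtrl) a control hairpin in the pLKO.1 vector. The labels' extraction text also speaks of mouse disc tissue, at odds with the rat cells that the other labels give, and was not used for that. RNA was collected 4 days after transduction and hybridised to whole-transcript arrays. The labels do not say how many hairpin sequences were used or whether the samples of a group are separate cultures or animals, and the p-values then cover only how far the samples of a group differ, possibly for technical reasons. All levels are log2 values normalized by the authors, and differences are ShBNIP3 minus ShCtrl. A gene was taken to have changed at an adjusted p under 0.05 in limma, a linear model with a shared variance estimate fitted to all 23188 probesets.

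Cholesterol is built from acetyl-CoA through mevalonate, isoprenoid diphosphates, squalene and lanosterol, and a series of reductases, demethylases and isomerases then turns lanosterol into cholesterol. The genes of this route are classical targets of SREBP-2, a transcription factor held in the endoplasmic reticulum by SCAP and INSIG proteins while sterol is plentiful, and released by a pair of proteases of the Golgi when sterol runs low. LXRs act at the other end: they are nuclear receptors that bind oxysterols and switch on genes for the export of cholesterol. Disc cells live without a blood supply, in low oxygen.

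The knockdown was seen on the arrays, where Bnip3 lay at 11.14, 11.26, 10.59, 11.31 and 12.68 on ShBNIP3 arrays 6 to 10, against 14.29, 14.29, 13.94, 15.97 and 14.54 on ShCtrl arrays 1 to 5 (log2 -3.21, SE 0.40, limma adjusted p = 0.0002; exact two-sided permutation p = 0.00794, the smallest possible with 5 against 5). ShBNIP3 array 10 and ShCtrl array 4 stood apart from the others. Their mean correlation with the arrays of their own group was 0.986 and 0.983, against 0.992 for each of the other 8, and they correlated with each other at 0.985, above the 0.978 that ShBNIP3 array 10 reached with any other ShCtrl array and the 0.979 that ShCtrl array 4 reached with any other ShBNIP3 array. Many results are also given without both arrays. A probeset was called at background on an array when it lay under the 95th percentile of the 23 background probesets there, a level of 6.50 to 6.78. Of the 8 nucleus pulposus markers measured, Acan, Col2a1 and Car3 were above background on all 10 arrays, Cd24 on 7, and Krt8, Krt18, Krt19 and Tbxt on none. Car3 was 2.45-fold lower (limma adjusted p = 0.0048) and Col2a1 1.59-fold lower (limma adjusted p = 0.0133) in ShBNIP3, both without overlap, and Acan differed by -0.90 (limma adjusted p = 0.19). The summed level of the nucleus pulposus markers (log2 of the summed linear values) was 12.17 to 13.80 in ShBNIP3 and 13.39 to 14.50 in ShCtrl. Among markers of other cells, the fibroblast genes Col1a1, Col1a2, Dcn and Scx were above background on all arrays, while 8 of 9 macrophage, 4 of 5 adipocyte and 5 of 5 endothelial genes were at background on all 10. The summed level of the macrophage markers lay between 8.50 and 9.29 in ShBNIP3 and between 7.85 and 8.66 in ShCtrl, with Cd68, a lysosomal protein, higher by 1.50 and the defining markers Ptprc and Csf1r at background throughout. Col1a1 was 1.32-fold lower (limma adjusted p = 0.016) and Col1a2 1.29-fold lower (limma adjusted p = 0.0315) in ShBNIP3, both without overlap. Dcn and Scx did not pass the test. The adipocyte gene Fabp4 was called higher (limma adjusted p = 0.0153) at background on all 10 arrays. The summed level of the fibroblast markers was 19.28 to 19.49 in ShBNIP3 and 19.63 to 19.78 in ShCtrl, and the adipocyte markers spanned 7.59 to 8.06 in ShBNIP3 and 7.40 to 8.01 in ShCtrl. Their part in the results was not tested. In bulk samples fewer cells of a type and less RNA per cell cannot be told apart.

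Enzymes of cholesterol synthesis rose in ShBNIP3 cells. Of the 18 measured, 9 passed the test with a higher level (50%) and 0 with a lower one, where 7.61% of all probesets tested passed upward and 7.87% downward. The genes were chosen with earlier results of these data known, so these shares describe the list and do not test it. By limma's unadjusted p under 0.05 the counts were 10 and 0. The median log2 difference of the 18 was 0.54, beside 0.024 for all probesets. Of these enzymes 17 were above background on all arrays of at least 1 group, and 8 of the 17 were higher in a fit limited to such probesets, where 18.8% of 10413 probesets were. Without ShBNIP3 array 10 and ShCtrl array 4 the counts were 9 higher and 1 lower, with a median of 0.48, where 9.84% and 10.1% of all probesets passed in these directions (19.9% in either). At the 2-fold change named in the labels, 3 enzymes were higher and 0 lower, where 1.44% and 2.74% of all probesets were (4.18% in either direction).

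**Figure D1:**
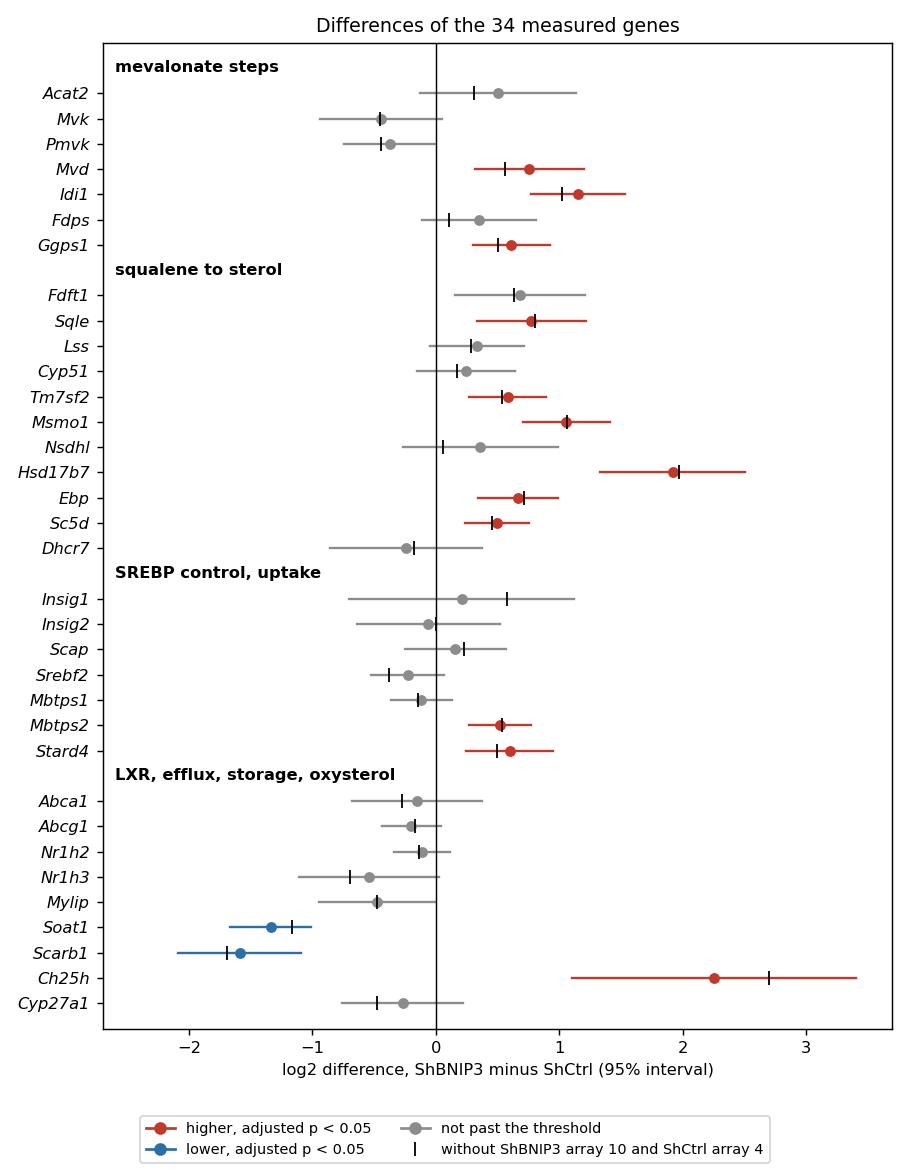
Log2 difference (ShBNIP3 minus ShCtrl, horizontal axis) of each of the 34 measured genes, in pathway order from top to bottom. Points are the limma estimates with 95% intervals, red where higher and blue where lower at an adjusted p under 0.05, grey otherwise, and black ticks are the estimates without ShBNIP3 array 10 and ShCtrl array 4. Red points fill much of the synthesis blocks, and the 2 blue points, Soat1 and Scarb1, are in the lowest block.

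Promoters are shown here because the SREBP proteins are known to act together with NF-Y, a factor that binds the CCAAT box. Sequences are the 250 bases before the annotated start in RefSeq, build GRCr8, 5′ to 3′ in the direction of the gene, in lower case with each CCAAT box in capitals (CCAAT, or ATTGG where it lies on the other strand). Hsd17b7, Idi1 and Msmo1 are the enzymes with the largest rises, Insig1 is the sterol sensor described further on, and Soat1 is the gene whose fall had the smallest adjusted p.
Hsd17b7 (chr13:84722755-84723004, minus strand): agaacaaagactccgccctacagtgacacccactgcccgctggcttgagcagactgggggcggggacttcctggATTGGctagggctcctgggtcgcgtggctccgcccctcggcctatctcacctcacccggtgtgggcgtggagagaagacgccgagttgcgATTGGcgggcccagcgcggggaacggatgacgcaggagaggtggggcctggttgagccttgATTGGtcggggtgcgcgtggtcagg
Idi1 (chr17:66547525-66547774, minus strand): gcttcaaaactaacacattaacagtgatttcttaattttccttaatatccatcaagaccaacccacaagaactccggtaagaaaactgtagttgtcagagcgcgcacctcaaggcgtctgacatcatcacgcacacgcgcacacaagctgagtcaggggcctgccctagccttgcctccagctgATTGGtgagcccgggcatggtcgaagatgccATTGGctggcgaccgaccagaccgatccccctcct
Msmo1 (chr16:29746863-29747112, plus strand): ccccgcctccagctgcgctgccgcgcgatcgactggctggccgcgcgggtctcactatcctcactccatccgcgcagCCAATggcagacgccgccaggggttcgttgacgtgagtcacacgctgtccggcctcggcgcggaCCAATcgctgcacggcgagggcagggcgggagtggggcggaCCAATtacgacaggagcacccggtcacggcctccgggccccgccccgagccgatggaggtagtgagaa
Insig1 (chr4:8057770-8058019, minus strand): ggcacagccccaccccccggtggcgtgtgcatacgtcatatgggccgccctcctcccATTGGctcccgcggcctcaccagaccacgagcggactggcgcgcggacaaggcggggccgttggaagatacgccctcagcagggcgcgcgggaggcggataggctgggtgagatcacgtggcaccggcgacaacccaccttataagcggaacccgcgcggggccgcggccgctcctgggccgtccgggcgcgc
Soat1 (chr13:71147673-71147922, minus strand): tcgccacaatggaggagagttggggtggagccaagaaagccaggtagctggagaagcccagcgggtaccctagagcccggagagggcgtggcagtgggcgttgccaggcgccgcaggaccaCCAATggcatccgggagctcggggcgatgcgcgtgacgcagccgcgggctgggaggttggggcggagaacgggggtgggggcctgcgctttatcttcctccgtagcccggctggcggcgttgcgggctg

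Windows were found for 29 of the 36 genes. Both strands were searched for the CCAAT box (CCAAT), the GC box bound by SP1 (GGGCGG), a sterol regulatory element (TCACNCCAC) and an E-box type of it (TCACNTGA). A CCAAT box was found in 8 of 8 windows of the enzymes that rose and in 4 of 7 windows of the enzymes that did not pass the test, beside 34% of all 33469 windows. The 8 include Mvd, at background on all 10 arrays, and Sqle, which also rose, had no window. The most boxes, 5 each, were in Mvk and Nsdhl, which did not pass the test. In Hsd17b7 the boxes begin 176, 86 and 25 bases before the start, in Msmo1 at 173, 109 and 68, and in Idi1 at 66 and 35. A GC box was present in 6 of 8 windows of the risen enzymes and 6 of 7 of the others, beside 30.5% of all windows, and Idi1 had none. The sterol regulatory element in these letters was in 0 of the 29 windows and 0.974% of all, and the E-box type was in 1, that of Cyp27a1, and 3.34% of all. These matches describe the letters in the windows and no binding was measured.

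Among the enzymes up to farnesyl and geranylgeranyl diphosphate, 3 of 7 rose (42.9%, beside 7.61% of all probesets) and 4 did not pass the test. One of the risen enzymes, Mvd, was at background on all arrays. In the fit limited to probesets above background, Idi1 and Ggps1 were higher, where 18.8% of probesets were. Without ShBNIP3 array 10 and ShCtrl array 4, 2 were higher and 1 was lower, where 9.84% and 10.1% of all probesets were. Idi1, the isomerase that gives the second of the isoprene building blocks, lay at 10.17, 9.71, 10.08, 9.52 and 10.16 on ShBNIP3 arrays 6 to 10, against 8.62, 8.80, 9.26, 8.47 and 8.71 on ShCtrl arrays 1 to 5. Every ShBNIP3 array was above every ShCtrl array, and the rise was 2.23-fold (log2 1.16, SE 0.18, limma adjusted p = 0.000757). Ggps1, which makes geranylgeranyl diphosphate for protein prenylation, lay at 8.98, 9.17, 9.60, 9.35 and 9.53 in ShBNIP3, against 8.73, 8.85, 8.60, 8.50 and 8.89 in ShCtrl, also with no overlap, and rose 1.53-fold (log2 0.61, SE 0.14, limma adjusted p = 0.011).

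Mvd, the decarboxylase that closes the mevalonate steps, was called higher (log2 0.76, SE 0.20, limma adjusted p = 0.0237) but lay under the background level on all 10 arrays, at 5.71, 5.96, 6.40, 5.95 and 6.27 in ShBNIP3, against 5.48, 4.99, 5.72, 4.72 and 5.61 in ShCtrl, so no fold is given. The groups overlapped between 5.71 on the lowest ShBNIP3 array and 5.72 on the highest ShCtrl array, and its adjusted p was 0.0549 without ShBNIP3 array 10 and ShCtrl array 4 and between 0.0634 and 0.065 when ShBNIP3 array 8 or ShCtrl array 2 was left out. The thiolase Acat2, which opens the route, lay at 9.61, 9.96, 9.75, 9.83 and 9.33 in ShBNIP3, against 9.12, 9.19, 10.12, 8.07 and 9.47 in ShCtrl. Its groups overlapped (log2 0.50, 95% interval -0.13 to 1.14, limma adjusted p = 0.309), and the difference was 0.31 without ShBNIP3 array 10 and ShCtrl array 4. Fdps, the farnesyl diphosphate synthase, differed by 0.35 (95% interval -0.11 to 0.81, limma adjusted p = 0.337), and by 0.11 without the pair of arrays that stood apart.

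The kinases of mevalonate had estimates of the opposite sign. Mvk, mevalonate kinase, lay at 8.54, 8.57, 8.81, 8.64 and 7.80 in ShBNIP3, against 8.84, 8.95, 9.18, 8.23 and 9.38 in ShCtrl. Its difference was -0.44 (SE 0.23, limma adjusted p = 0.241), and -0.45 with an adjusted p of 0.0453 without ShBNIP3 array 10 and ShCtrl array 4, where it was the enzyme called lower. Pmvk, phosphomevalonate kinase, differed by -0.37 (95% interval -0.74 to 0.0038, limma adjusted p = 0.193).

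From squalene to cholesterol 6 of 11 enzymes rose (54.5%, beside 7.61% of all probesets) and 0 fell (beside 7.87%). All 11 were above background on all arrays of at least 1 group. In the fit limited to such probesets, 18.8% were higher and 18.3% lower. The largest rise of the pathway was in Hsd17b7, which reduces the keto group left when the methyl groups of lanosterol are removed and in other settings reduces steroid hormones. Its level was 11.66, 11.91, 12.10, 11.84 and 10.72 on ShBNIP3 arrays 6 to 10, against 9.68, 9.79, 10.30, 9.00 and 9.86 on ShCtrl arrays 1 to 5. The lowest ShBNIP3 array, array 10, was above the highest ShCtrl array, and the rise was 3.78-fold (log2 1.92, SE 0.27, limma adjusted p = 0.000456). Msmo1, the oxidase that acts on the same methyl groups, lay at 13.90, 13.76, 13.80, 13.48 and 13.35 in ShBNIP3, against 12.48, 12.52, 13.10, 12.32 and 12.59 in ShCtrl, again without overlap, and rose 2.08-fold (log2 1.06, SE 0.16, limma adjusted p = 0.000827). Nsdhl, the dehydrogenase that works between these enzymes, lay at 8.72, 8.57, 8.61, 8.59 and 8.46 in ShBNIP3, against 8.32, 8.51, 8.85, 6.90 and 8.58 in ShCtrl. ShCtrl array 4 alone was low, and the difference was 0.36 (95% interval -0.27 to 0.99, limma adjusted p = 0.495), or 0.061 without both apart-standing arrays.

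Sqle, the squalene epoxidase and a rate-limiting step, lay at 11.35, 11.39, 11.33, 11.30 and 10.54 in ShBNIP3, against 10.31, 10.38, 10.74, 9.87 and 10.73 in ShCtrl. Arrays 6 to 9 of ShBNIP3 were above all ShCtrl arrays, while array 10 lay among them. The rise of Sqle was 1.71-fold (log2 0.77, SE 0.20, limma adjusted p = 0.0209). Its adjusted p was 0.00121 without ShBNIP3 array 10 and ShCtrl array 4, and between 0.0519 and 0.0541 when ShBNIP3 array 7, 8 or 9 was left out. Fdft1, the squalene synthase one step before, lay at 11.67, 11.48, 11.67, 11.51 and 10.86 in ShBNIP3, against 10.72, 10.59, 11.44, 10.00 and 11.04 in ShCtrl. Its difference of 0.68 (SE 0.24) missed the threshold with a limma adjusted p of 0.0823, and had an adjusted p of 0.023 without ShBNIP3 array 10 and ShCtrl array 4, 0.0312 without ShBNIP3 array 10 and 0.0279 when ShCtrl array 3 was left out.

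The sterol isomerase Ebp lay at 10.97, 11.17, 11.35, 11.18 and 11.17 in ShBNIP3, against 10.19, 10.16, 10.68, 10.72 and 10.78 in ShCtrl and rose 1.59-fold (log2 0.66, SE 0.15, limma adjusted p = 0.00946). Tm7sf2, a sterol reductase, lay at 7.92, 7.86, 8.07, 8.15 and 7.68 in ShBNIP3, against 7.44, 7.42, 7.58, 6.93 and 7.40 in ShCtrl and rose 1.5-fold (log2 0.58, SE 0.14, limma adjusted p = 0.0153). Sc5d, the desaturase next to Ebp in the route, lay at 11.76, 11.34, 11.47, 11.63 and 11.44 in ShBNIP3, against 11.12, 11.13, 11.07, 10.79 and 11.05 in ShCtrl and rose 1.41-fold (log2 0.50, SE 0.12, limma adjusted p = 0.0136). In all 3 the groups did not overlap. Groups that do not overlap were found for 7 of the 18 enzymes, beside 12.9% of all probesets.

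Lanosterol formation and the last reduction did not pass the test. Lss, the lanosterol synthase, differed by 0.33 (95% interval -0.049 to 0.71, limma adjusted p = 0.258) and Cyp51, the lanosterol demethylase, by 0.24 (95% interval -0.15 to 0.64, limma adjusted p = 0.462), or by 0.17 without the pair of arrays that stood apart. Dhcr7, which reduces the last precursor to cholesterol, lay at 7.65, 7.52, 7.82, 7.53 and 6.35 in ShBNIP3, against 7.75, 7.70, 8.15, 6.84 and 7.62 in ShCtrl. ShBNIP3 array 10 was the lowest, and the difference was -0.24 (95% interval -0.85 to 0.38, limma adjusted p = 0.675).

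**Figure D2:**
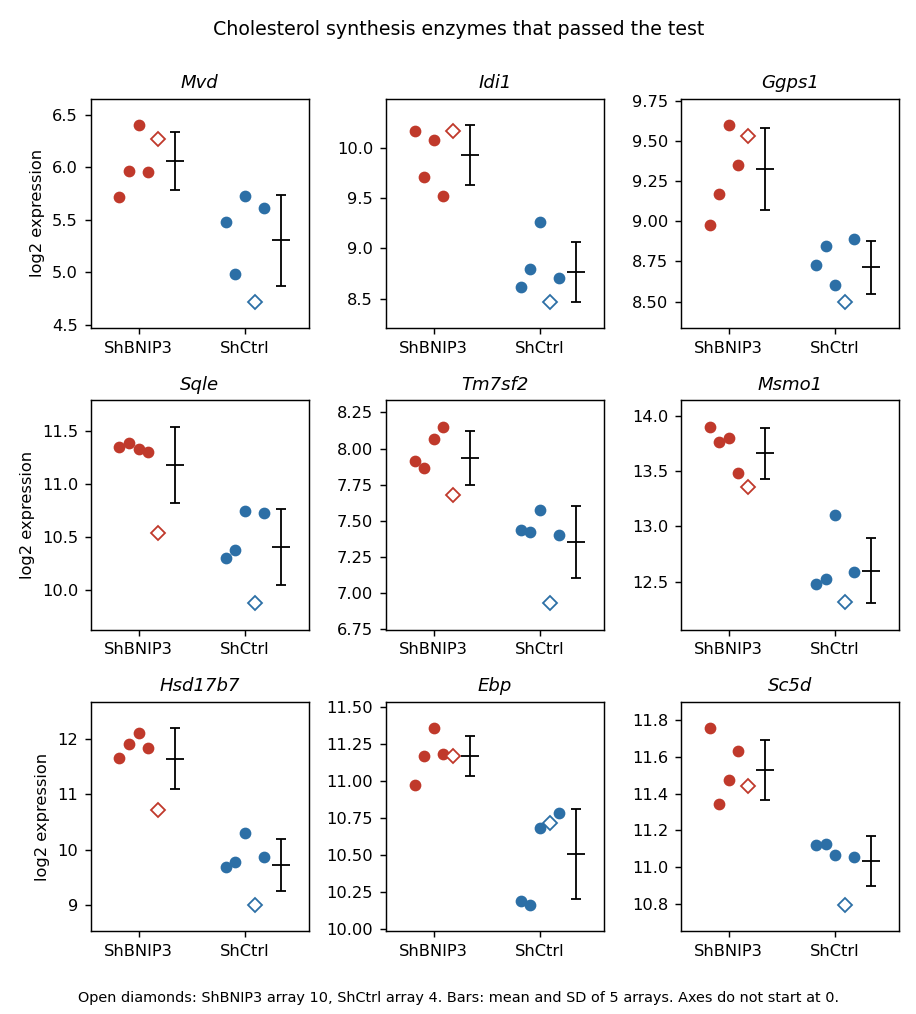
Log2 expression (vertical axis, a range of its own in each panel) of the 9 enzymes that rose, with 1 point per array, ShBNIP3 on the left and ShCtrl on the right, and the mean with SD beside the points. Open diamonds are ShBNIP3 array 10 and ShCtrl array 4. In Hsd17b7 the ShBNIP3 arrays run from 10.72 to 12.10 and the ShCtrl arrays from 9.00 to 10.30.

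ShCtrl array 4 was low within its group for most enzymes, and ShBNIP3 array 10 for most of those from squalene on. ShCtrl array 4 had the lowest value of its group for 15 of the 18 enzymes and ShBNIP3 array 10 for 10. Set against the mean of the other 4 arrays of the group, the 7 enzymes of the mevalonate steps lay a median of 0.25 on ShBNIP3 array 10, where 5 of the 7 were above that mean, and -0.73 on ShCtrl array 4. The 11 enzymes from squalene on lay a median of -0.34 on ShBNIP3 array 10, where 10 of the 11 were below that mean, and -0.67 on ShCtrl array 4. Between these arrays alone, ShBNIP3 array 10 minus ShCtrl array 4, the difference was above 0 for 15 of 18 enzymes and for all 9 that rose. It was 1.71 for Hsd17b7, 1.69 for Idi1 and 1.04 for Msmo1. These are values of a single pair with no test. Both arrays were also in the fit that called the 9, so the sign in these 9 is no separate support.

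The next group holds the genes of SREBP control and sterol transport. Of the 7 measured, 2 rose (28.6%, beside 7.61% of all probesets) and 0 fell, with a median difference of 0.16. The counts were also 2 and 0 at an unadjusted p under 0.05. The counts were 3 and 0 without ShBNIP3 array 10 and ShCtrl array 4, where 9.84% and 10.1% of all probesets passed. Stard4 was at background throughout, and in the fit limited to probesets above background 1 of 6 rose (16.7%), where 18.8% of probesets did. Mbtps2, the second of the Golgi proteases that free SREBP, lay at 12.85, 13.16, 13.09, 13.31 and 13.04 in ShBNIP3, against 12.69, 12.61, 12.42, 12.59 and 12.53 in ShCtrl. All ShBNIP3 arrays were above all ShCtrl arrays, and the rise was 1.44-fold (log2 0.52, SE 0.12, limma adjusted p = 0.00864). Mbtps1, the first of these proteases, differed by -0.12 (95% interval -0.37 to 0.13, limma adjusted p = 0.593).

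Stard4, a carrier that moves cholesterol between membranes, was called higher (log2 0.60, SE 0.16, limma adjusted p = 0.0244) within the background range of all 10 arrays, with 6.15, 6.37, 6.39, 6.38 and 6.28 in ShBNIP3, against 5.63, 5.53, 5.97, 5.27 and 6.17 in ShCtrl. ShCtrl array 5 lay above ShBNIP3 array 6, and the adjusted p was between 0.0538 and 0.0634 when ShBNIP3 array 7, 8 or 9 or ShCtrl array 1 or 2 was left out. Srebf2, which encodes SREBP-2 itself, lay at 9.66, 9.58, 9.73, 9.61 and 10.10 in ShBNIP3, against 9.83, 10.02, 10.01, 9.73 and 10.23 in ShCtrl. The difference was -0.23 (95% interval -0.53 to 0.07, limma adjusted p = 0.331), and -0.38 (limma adjusted p = 0.0503) without ShBNIP3 array 10 and ShCtrl array 4. Scap, the escort that carries SREBP to the Golgi, lay at 8.68, 9.00, 8.26, 8.48 and 7.98 in ShBNIP3, against 8.31, 8.73, 8.30, 8.11 and 8.16 in ShCtrl, with overlapping groups (log2 0.16, 95% interval -0.25 to 0.57, limma adjusted p = 0.676).

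The INSIG genes, whose proteins retain SCAP and SREBP in the endoplasmic reticulum, were marked by the apart-standing arrays. Insig1, itself a target of SREBP, lay at 12.60, 12.81, 12.60, 12.47 and 13.19 on ShBNIP3 arrays 6 to 10, against 11.63, 11.84, 12.36, 14.44 and 12.34 on ShCtrl arrays 1 to 5. ShCtrl array 4 was the highest of all, 2.40 above the mean of the other ShCtrl arrays, and ShBNIP3 array 10 the next. With all arrays the difference was 0.21 (95% interval -0.70 to 1.12, limma adjusted p = 0.823). Without ShCtrl array 4 it was 0.69 (limma adjusted p = 0.026), and without both arrays 0.58 (limma adjusted p = 0.0363).

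Insig2, which is known to respond to other signals than Insig1, lay at 10.47, 10.46, 10.60, 10.41 and 11.43 on ShBNIP3 arrays 6 to 10, against 10.57, 10.52, 10.41, 11.73 and 10.43 on ShCtrl arrays 1 to 5. The 8 other arrays spanned 10.41 to 10.60, while ShBNIP3 array 10 and ShCtrl array 4 were higher than the rest of their groups by 0.94 and 1.25. Between the groups it differed by -0.059 (95% interval -0.64 to 0.52, limma adjusted p = 0.927) with all arrays and by 0.0024 (limma adjusted p = 0.993) without these.

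**Figure D3:**
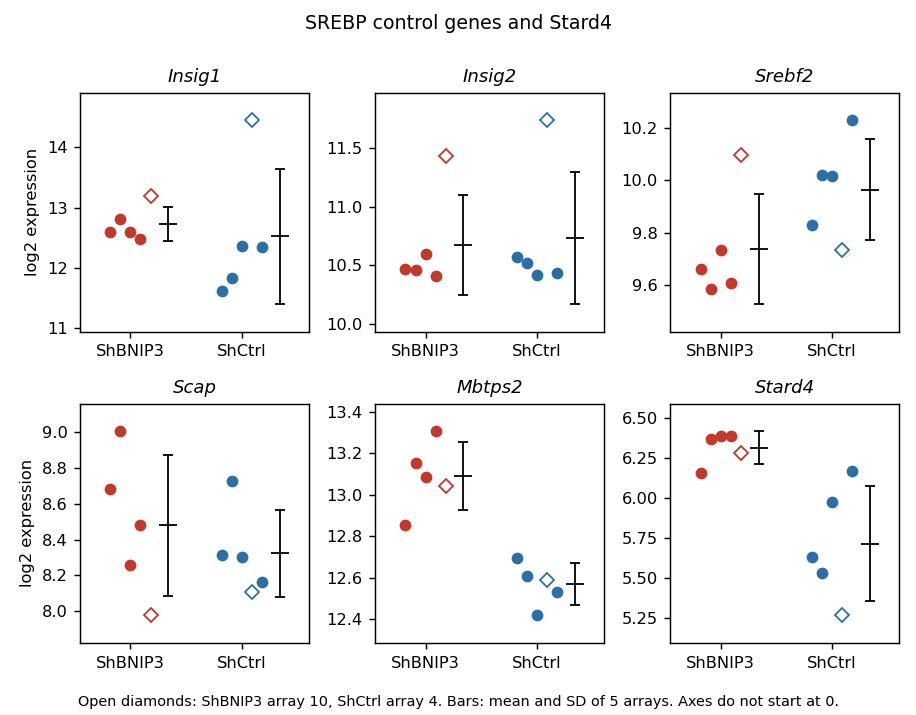
Log2 expression (vertical axis, a range of its own in each panel) of 5 genes of SREBP control and of Stard4, with 1 point per array, ShBNIP3 on the left and ShCtrl on the right, and the mean with SD. Open diamonds, ShBNIP3 array 10 and ShCtrl array 4, lie above the other arrays of their group in Insig1 and Insig2, and in Mbtps2 the groups are apart, at 12.85 to 13.31 in ShBNIP3 and 12.42 to 12.69 in ShCtrl.

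In the group of LXR, efflux, storage and oxysterol genes, 1 of 9 rose (11.1%) and 2 fell (22.2%), where 7.61% and 7.87% of all probesets did, and 8 of the 9 estimates were below 0 with a median of -0.27. By limma's unadjusted p under 0.05 the counts were 1 and 3. At the adjusted threshold they were also 1 and 3 without ShBNIP3 array 10 and ShCtrl array 4, where 9.84% and 10.1% of all probesets passed. In the fit limited to probesets above background, 0 of 6 rose and 2 fell, where 18.8% and 18.3% of probesets did. Soat1, the enzyme of the endoplasmic reticulum that esterifies cholesterol for storage, lay at 12.02, 12.10, 12.28, 12.03 and 11.89 on ShBNIP3 arrays 6 to 10, against 13.33, 13.23, 13.15, 13.93 and 13.36 on ShCtrl arrays 1 to 5. The groups were far apart, and Soat1 fell 2.53-fold (log2 -1.34, SE 0.15, limma adjusted p = 9.21e-05), or by 1.16 on the log2 scale without ShBNIP3 array 10 and ShCtrl array 4. Scarb1, the receptor for high-density lipoprotein, which moves cholesterol into and out of cells, lay at 6.63, 6.54, 6.40, 5.42 and 6.04 in ShBNIP3, against 7.82, 7.93, 7.93, 7.22 and 8.06 in ShCtrl. It was at background on all ShBNIP3 arrays and above it on all ShCtrl arrays, so that it was at least 2.13-fold lower in ShBNIP3, the ShCtrl mean set against the background level (fitted log2 -1.59, SE 0.23, limma adjusted p = 0.000549).

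Ch25h, the hydroxylase that makes an oxysterol which binds INSIG proteins and LXRs, went the other way. It lay at 6.10, 5.84, 8.13, 8.48 and 6.81 on ShBNIP3 arrays 6 to 10, against 4.23, 4.71, 4.60, 6.34 and 4.21 on ShCtrl arrays 1 to 5. All ShCtrl arrays and 2 of 5 ShBNIP3 arrays were at background, and ShCtrl array 4 lay above ShBNIP3 arrays 6 and 7. Ch25h was at least 1.35-fold higher in ShBNIP3, its ShBNIP3 mean set against the background level (fitted log2 2.25, SE 0.53, limma adjusted p = 0.0119), and its spread of 1.19 (SD) in ShBNIP3 was the widest among the 34 genes in that group. Without ShBNIP3 array 10 and ShCtrl array 4 the log2 difference was 2.70 (limma adjusted p = 0.00253). Cyp27a1, the mitochondrial oxysterol-forming hydroxylase, was at background on 9 of 10 arrays, and differed by -0.27 (limma adjusted p = 0.52), or -0.48 (limma adjusted p = 0.0742) without both arrays.

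The receptors and the known LXR targets Abca1, Abcg1 and Mylip did not pass the test. Nr1h3 (LXR alpha) lay at 8.85, 9.44, 9.31, 9.64 and 8.97 in ShBNIP3, against 9.56, 9.92, 10.01, 8.90 and 10.53 in ShCtrl. ShCtrl array 4 lay between the lowest ShBNIP3 arrays, 6 and 10, and the difference was -0.54 (95% interval -1.11 to 0.022, limma adjusted p = 0.208). Without ShCtrl array 4 it was -0.76 (limma adjusted p = 0.0243), and without both arrays -0.69 (limma adjusted p = 0.0387). Nr1h2 (LXR beta) lay at 12.69, 12.66, 12.80, 12.78 and 12.65 in ShBNIP3, against 12.83, 12.77, 12.85, 12.68 and 13.00 in ShCtrl, with a difference of -0.11 (95% interval -0.34 to 0.12, limma adjusted p = 0.576). The exporter Abca1 differed by -0.15 (95% interval -0.68 to 0.38, limma adjusted p = 0.774; -0.28 without both arrays), and Mylip, the ubiquitin ligase that removes lipoprotein receptors, by -0.48 (95% interval -0.95 to -0.0038, limma adjusted p = 0.184). The exporter Abcg1 was at background on all 10 arrays, and no fold is given.

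**Figure D4:**
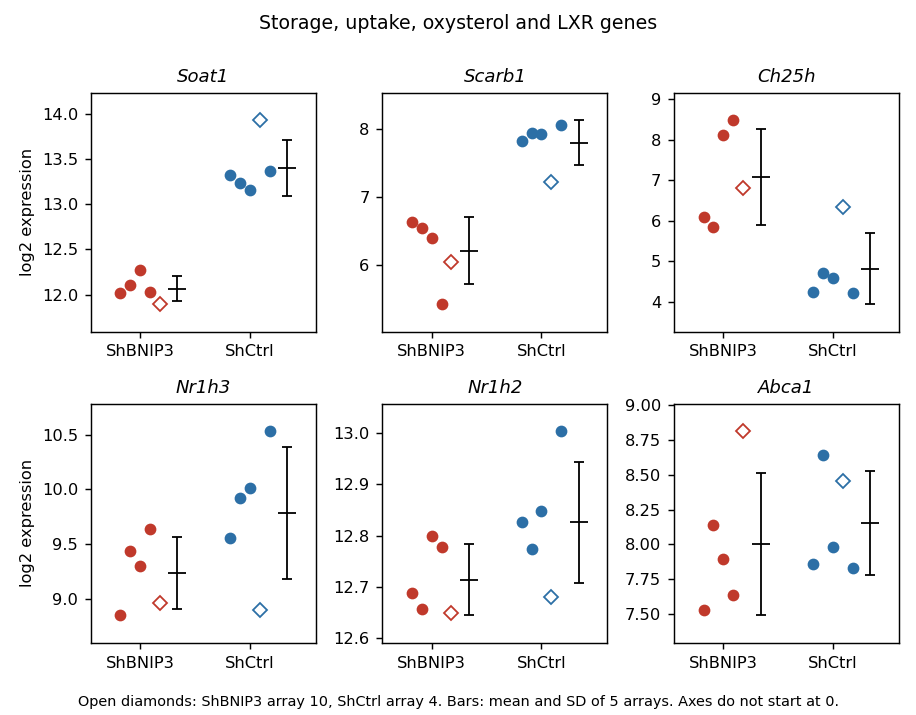
Log2 expression (vertical axis, a range of its own in each panel) of 6 genes of storage, lipoprotein uptake, oxysterol synthesis and the LXR system, with 1 point per array, ShBNIP3 on the left and ShCtrl on the right, and the mean with SD. In Soat1 and Scarb1 all ShBNIP3 points lie below all ShCtrl points, and the ShBNIP3 points of Ch25h spread from 5.84 to 8.48. Open diamonds are ShBNIP3 array 10 and ShCtrl array 4.

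A further 55 genes around the sterol pathway were listed, 49 of them measured. Of these 7 were higher (14.3%) and 10 lower (20.4%), with a median difference of -0.11, where 7.61% and 7.87% of all probesets were. Without ShCtrl array 1, 3 or 5 the count of higher genes was 4 in each case. With both ShBNIP3 array 10 and ShCtrl array 4 left out, 7 were higher and 14 lower, where 9.84% and 10.1% of all probesets were. In the fit limited to probesets above background, where 18.8% were higher and 18.3% lower, 7 were higher and 12 lower of the 42 genes above background on all arrays of a group (16.7% and 28.6%). In the list of 24 genes of sterol traffic and LXR partners, 3 were higher (12.5%) and 5 lower (20.8%), and in that fit 2 were higher and 7 lower of the 19 genes above background on all arrays of a group. Lipa, the lysosomal acid lipase that frees cholesterol from esters, lay at 10.69, 10.71, 10.90, 10.74 and 10.58 in ShBNIP3, against 13.01, 12.77, 13.02, 12.38 and 12.82 in ShCtrl. It fell 4.22-fold (log2 -2.08, SE 0.14, limma adjusted p = 1.39e-06) with no overlap. Srebf1, the SREBP of fatty acid synthesis and a classical LXR target, lay at 8.58, 8.55, 8.33, 8.58 and 8.30 in ShBNIP3, against 10.85, 11.14, 10.79, 8.98 and 10.58 in ShCtrl and fell 4-fold (log2 -2.00, SE 0.32, limma adjusted p = 0.00108). ShCtrl array 4 was the lowest of its group, and without both apart-standing arrays the difference was -2.33. Gramd1a, which carries cholesterol from the plasma membrane to the endoplasmic reticulum, lay at 8.20, 7.95, 8.49, 8.82 and 8.40 in ShBNIP3, against 9.74, 10.25, 9.78, 10.65 and 9.88 in ShCtrl and fell 3.23-fold (log2 -1.69, SE 0.20, limma adjusted p = 0.000142). Gramd1b did not pass with all arrays (log2 -1.14, limma adjusted p = 0.105), with ShCtrl array 4 at -2.45 from the mean of the other ShCtrl arrays. Its difference was -1.44 (limma adjusted p = 3.36e-05) without both apart-standing arrays.

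Other steps fed by mevalonate or feeding it were mixed. Of 4 genes of acetyl-CoA supply, 0 were higher and 1 was lower (25%, beside 7.87% of all probesets). In the fit limited to probesets above background 1 of the 4 was lower, where 18.3% of probesets were. The lower gene was Acly, the citrate lyase that makes cytosolic acetyl-CoA. It lay at 11.17, 11.31, 11.21, 11.23 and 11.55 in ShBNIP3, against 12.17, 12.18, 12.60, 12.34 and 12.24 in ShCtrl. Acly fell 2.02-fold (log2 -1.01, SE 0.13, limma adjusted p = 0.00017). Of 12 genes of the mevalonate branches, 2 were higher (16.7%) and 3 lower (25%), beside 7.61% and 7.87% of all probesets, and in the fit limited to probesets above background 2 were higher and 3 lower of the 11 genes above background on all arrays of a group. The lower ones were Rabggtb and Rabggta, the subunits of the enzyme that prenylates Rab proteins (log2 -0.72 and -0.64, limma adjusted p = 0.00185 and 0.0178), and Dhdds, a subunit of the enzyme that makes the dolichol backbone (log2 -0.63, limma adjusted p = 0.0207). The adjusted p of Dhdds was between 0.0502 and 0.0564 when ShBNIP3 array 8 or 9 or ShCtrl array 1 or 3 was left out. Its partner Nus1, named after its values were seen, was higher (log2 0.62, SE 0.13, limma adjusted p = 0.00605).

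Of 6 genes of sterol-regulated protein degradation, 1 was higher (16.7%, beside 7.61% of all probesets) and 0 were lower. In the fit limited to probesets above background 2 of the 6 were higher, where 18.8% of probesets were. The count was also 2 without ShBNIP3 array 10 and ShCtrl array 4, where 9.84% of all probesets were higher. The gene called higher in the main fit was Rnf139, a ubiquitin ligase of the endoplasmic reticulum with a sterol-sensing domain. It rose 1.59-fold (log2 0.67, SE 0.12, limma adjusted p = 0.00237). Of 3 genes of oxysterol metabolism, 1 was higher and 1 lower (33.3% each, beside 7.61% and 7.87% of all probesets). In the fit limited to probesets above background 1 was higher and 1 lower of 2, where 18.8% and 18.3% of probesets were. Cyp7b1, a hydroxylase that clears the oxysterol made by Ch25h, lay at 6.70, 7.71, 8.64, 9.09 and 9.58 in ShBNIP3, against 5.30, 5.42, 4.82, 8.01 and 4.57 in ShCtrl. It was above background on all ShBNIP3 arrays and on 1 ShCtrl array, array 4, which lay above ShBNIP3 arrays 6 and 7. With the ShCtrl arrays raised to the background level where they lay under it, Cyp7b1 was at least 2.7-fold higher in ShBNIP3 (fitted log2 2.72, SE 0.64, limma adjusted p = 0.012). Hsd3b7, which acts after it on the way to bile acids in liver, was lower at 10.69, 11.22, 11.18, 11.12 and 11.02 in ShBNIP3, against 11.77, 11.72, 11.63, 11.69 and 11.74 in ShCtrl and fell 1.58-fold (log2 -0.66, SE 0.12, limma adjusted p = 0.00272).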

How the data were processed

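The 10 arrays (5 ShBNIP3, 5 ShCtrl, grouped by title) were deposited by the authors as log2 expression per probeset. Per the labels, the kit was the GeneChip WT Plus and normalization was by sst-rma. Transcriptome Analysis Console is credited in the submitters' processing notes, with a version not given in the sources used here. The values were used as deposited. Of 24834 probesets, 1646 controls were left out, and 15049 of the remaining 23188 carry a gene symbol, matched through Entrez identifiers to the RefSeq table of GRCr8 with 0 changes. For arrays, their number limits the precision.

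All 23188 probesets entered 1 fit without covariates in limma 3.58.1 (lmFit, eBayes; R 4.3.3), and p-values were adjusted over all of them (Benjamini-Hochberg, threshold 0.05). The fit was tested on simulated data. Folds are not given where both groups lay at background. The level on every array is given for the members past the threshold and for a set of control genes and enzymes whatever their result, and in each further list the 3 largest called differences are named. Members and lists were chosen with earlier results of these data known. Alternatives were a trended robust variance, quantile normalization, a filter on dim probesets, array weights, leaving out arrays, and a 2-fold threshold. Promoters were searched in Python 3.11.15.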

Additional observations from a re-analysis of the deposited data

Results flagged for a closer look

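In 15 of 70 groups of 5 values (34 genes and Bnip3, 2 groups each) 1 array lay far from the other 4 by Dixon's test, with a gap over range above 0.71. By chance about 1 in 20 groups would meet this. ShBNIP3 array 10 accounts for 6 and ShCtrl array 4 for 8, and the groups share these arrays, so these are not independent.

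On ShBNIP3 array 10 the flagged low values were Mvk at 7.80 (the others 8.54 to 8.81), Fdft1 at 10.86 (the others 11.48 to 11.67), Sqle at 10.54 (the others 11.30 to 11.39) and Dhcr7 at 6.35 (the others 7.52 to 7.82). On the same array Insig2 at 11.43 (the others 10.41 to 10.60) and Srebf2 at 10.10 (the others 9.58 to 9.73) were high.

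On ShCtrl array 4 the low values were Tm7sf2 at 6.93 (the others 7.40 to 7.58), Nsdhl at 6.90 (the others 8.32 to 8.85), Sc5d at 10.79 (the others 11.05 to 11.13) and Scarb1 at 7.22 (the others 7.82 to 8.06). High values there were Insig1 at 14.44 (the others 11.63 to 12.36), Insig2 at 11.73 (the others 10.41 to 10.57), Soat1 at 13.93 (the others 13.15 to 13.36) and Ch25h at 6.34 (the others 4.21 to 4.71). Insig2 was thus high on both of these arrays. The flagged enzymes differed between them. Those flagged on either array lay below the mean of the other arrays of the group on the other array too, without being flagged. On ShCtrl array 4, Mvk lay at -0.86, Fdft1 at -0.95, Sqle at -0.67 and Dhcr7 at -0.97 from the mean of the other ShCtrl arrays. On ShBNIP3 array 10, Tm7sf2 lay at -0.32, Nsdhl at -0.17 and Sc5d at -0.11 from the mean of the other ShBNIP3 arrays. For Sc5d, ShBNIP3 array 7 was lower still (11.34, against 11.44 on array 10). The exporter Abcg1 at 3.07 (the others 3.34 to 3.45) was low on ShCtrl array 5, within the background range.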

How the results depend on the processing

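Of the 34 genes, 34 kept their direction and side of the threshold with a trended robust variance and with quantile normalization, 29 of 29 under the filter on dim probesets, 32 with array weights, and 28 without both ShBNIP3 array 10 and ShCtrl array 4. When these arrays were given a term of their own, an alternative chosen after seeing the data, 32 did so and 2, Fdft1 and Mvk, newly passed. Enzymes lower in ShBNIP3 numbered 1 with this term and 1 without both arrays (Mvk), in place of 0. At 2-fold the counts were 333 higher and 636 lower probesets, 3 higher enzymes and 0 higher genes of SREBP control, in place of 1765, 1825, 9 and 2. The dim filter left 1 higher gene of SREBP control and 0 of the LXR group in place of 2 and 1, since Stard4 and Ch25h were not in that fit. Insig2, at -0.059 with all arrays, was 0.0083 with array weights and 0.0024 without both arrays. Leaving out 1 array at a time, the difference ranged over -0.25 to 0.19 for Insig2, -0.013 to 0.69 for Insig1 and -0.43 to 0.017 for Dhcr7. The count of higher enzymes then lay between 7 and 10, of higher SREBP control genes between 1 and 3 (1 without ShBNIP3 array 7, 8 or 9 or ShCtrl array 1 or 2), and of the other sterol genes between 4 and 6 higher (4 without ShCtrl array 1, 3 or 5) and between 8 and 15 lower. No paired analysis was possible because the title numbers are not shared between the groups. With 5 arrays a group and levels near background, smaller differences can be missed.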

Other observations

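Further genes of the wider sterol lists passed the test and are given for completeness, named after their values were seen. Tmem97, a sterol-regulated membrane protein, lay at 11.39, 10.90, 11.00, 10.98 and 10.92 in ShBNIP3, against 9.86, 10.05, 10.39, 9.89 and 10.34 in ShCtrl and rose 1.9-fold (log2 0.93, SE 0.15, limma adjusted p = 0.000987). Pltp, the phospholipid transfer protein and a target of LXRs, lay at 7.46, 6.79, 6.78, 6.50 and 7.12 in ShBNIP3, against 8.05, 8.00, 8.08, 7.81 and 8.10 in ShCtrl, with no overlap between groups. It was at background on ShBNIP3 array 9. With that array raised to the background level, Pltp was at least 2.04-fold lower in ShBNIP3 (fitted log2 -1.07, SE 0.17, limma adjusted p = 0.000846). Vldlr, a lipoprotein receptor, lay at 11.17, 11.00, 10.36, 10.79 and 10.77 in ShBNIP3, against 11.54, 11.40, 11.34, 12.92 and 11.79 in ShCtrl with ShCtrl array 4 the highest, and fell 1.97-fold (log2 -0.98, SE 0.27, limma adjusted p = 0.0273). Its difference was -0.69 without ShBNIP3 array 10 and ShCtrl array 4, and the adjusted p was between 0.0555 and 0.0739 when ShBNIP3 array 8 or 9 or ShCtrl array 5 was left out.

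The transporter Abca7 was higher (log2 0.57, SE 0.16, limma adjusted p = 0.0331), but at an adjusted p under 0.05 in 4 of 10 fits with 1 array left out, where it ranged from 0.0238 to 0.0838. Lcat, which esterifies cholesterol in plasma, was higher (log2 0.53, SE 0.15, limma adjusted p = 0.0261) near the background level, and passed in 5 of 10 such fits (0.011 to 0.0674). Icmt, which methylates prenylated proteins, was higher (log2 0.48, SE 0.15, limma adjusted p = 0.0441) and passed in 1 of 10 (0.0206 to 0.104).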
